A study of Mus musculus with 6 samples.

Results

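The genes described here are 9 genes of programmed cell death and a read-through gene that overlaps 1 of them, measured by RNA-seq in MC3T3-E1 cells. They are the survival genes *Mcl1*, *Bcl2l1* and *Bcl2l2*, the executioners *Bax* and *Bak1*, the BH3-only genes *Bid*, *Bbc3* and *Bcl2l11*, the BAX partner *Moap1*, and *Gm20521*, which is annotated across *Bcl2l2* and its neighbour *Pabpn1*. They were taken by name, all 10 had values, and they are 10 of the 11234 genes with an expression value. *Moap1* and *Gm20521* were chosen by the difference itself, since both stand among the differentially expressed genes (DEGs) that the study called on these same libraries. Their differences between C3G-treated and untreated cells are therefore given as a description with no p, and nothing is read from their place in the counts of called genes. The other 8 genes were taken by family membership, with earlier results of these data known.

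MC3T3-E1 is a clonal mouse preosteoblast line, labelled C57BL/6 and used at passage 4. All cells were first held in serum-free medium for 24 h. Then 3 samples received 100 μmol/L cyanidin-3-O-glucoside (C3G, an anthocyanin pigment of plants) for 24 h and 3 control samples received none. The question of the comparison was which genes differ in expression between C3G-treated and untreated cells. Of 10 preosteoblast marker genes, 9 had values, among them *Runx2* at 5.46 to 9.07 FPKM over the 6 libraries and *Col1a1* at 923 to 1478 FPKM in 5 libraries and 4432 FPKM in control replicate 1, while *Sp7* was low at 0.237 to 0.857 FPKM. Of 14 markers of other cell types, 13 are not analysed here and *Ctsk*, the osteoclast gene of cathepsin K, measured 16.6 to 34.5 FPKM. FPKM (fragments per kilobase of transcript, scaled to the mapped fragments of a library) corrects for length, so levels of different genes are set side by side on it, within the limits of GC content and overlapping genes given below. In RNA from whole cultures, a change in the number of cells that express a gene and a change in RNA per cell cannot be told apart.

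Proteins of the BCL2 family decide whether the outer membrane of the mitochondrion is opened during apoptosis. BAX and BAK form the pores, the survival members MCL1, BCL-XL (from *Bcl2l1*) and BCL-W (from *Bcl2l2*) hold them in check, and BH3-only proteins such as BIM (from *Bcl2l11*), BID and PUMA (from *Bbc3*) bind either side and promote opening. MOAP1 is an adaptor that binds BAX and links it to death receptors through RASSF1A. Osteoblasts and their precursors express members of all these classes, and much of the family's control acts on the proteins, by cleavage, phosphorylation and turnover, which RNA levels do not show.

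The exon structure of *Bcl2l2* and *Gm20521* bears on every value of both genes, so the junctions that tell them apart are shown. In GENCODE M21 on GRCm38, *Bcl2l2* lies at chr14:54883377-54888234 on the plus strand, *Gm20521* at chr14:54883441-54898137 and *Pabpn1*, which encodes a poly(A)-binding protein of the nucleus, at chr14:54892500-54898169. The single transcript of *Gm20521* has 9 exons, 3 that lie on *Bcl2l2* exons and 6 that lie on *Pabpn1* exons. Its exon 3 (chr14:54884374-54884813) ends at the same base as that of *Bcl2l2*, and from there the read-through transcript skips 10034 bases to chr14:54894848-54894962, a coding exon of *Pabpn1*. The *Bcl2l2* transcript compared here instead continues to chr14:54885384-54888234. The next 3 lines give the 20 coding bases before each junction in lower case and the 20 coding bases after it in capitals.
Gm20521, exon 3 to exon 4: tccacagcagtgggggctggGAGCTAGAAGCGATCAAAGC
Bcl2l2, exon 3 to exon 4: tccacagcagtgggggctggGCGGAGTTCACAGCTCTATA
Pabpn1, exon 1 to exon 2: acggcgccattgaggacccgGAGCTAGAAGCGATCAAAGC

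The left side of the *Gm20521* junction is that of *Bcl2l2* and the right side is that of *Pabpn1*. Of the 999 coding bases of *Gm20521*, 432 (144 codons) come from *Bcl2l2* exons and 567 from *Pabpn1* exons. The 147 coding bases in the last exon of that *Bcl2l2* transcript, which encode the end of BCL-W with its membrane anchor, are not part of it. Of the 75-base stretches of the 1245-base transcript, 44.5% also occur in *Bcl2l2* transcripts and 49.4% in *Pabpn1* transcripts. Only 72 stretches, within bases 522 to 667 around the junction after base 594, occur in neither. In turn 12.2% of the stretches of *Bcl2l2* and 23.3% of those of *Pabpn1* occur in *Gm20521*.

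*Moap1* is in a like position at chr12:102742230-102743661 on the minus strand. Its coding exon lies inside the last exon of *Gm20604* (chr12:102741732-102758672, same strand), and 88.2% of its 75-base stretches also occur in *Gm20604*. The first exon of *Gm20604* (chr12:102757541-102758672) shares sequence with *Gon7* and is joined to the exon that holds *Moap1* (chr12:102741732-102743394). Its coding junction, with the part inside the *Moap1* exon in capitals, is a join that *Moap1* transcripts lack.
Gm20604, exon 1 to exon 2: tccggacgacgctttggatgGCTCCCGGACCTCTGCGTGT

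The sources used here do not state how fragments common to overlapping genes were divided, so single values of *Gm20521*, *Bcl2l2* and *Moap1* are uncertain. Sums over overlapping genes are given beside them below. FPKM is divided by length and these genes differ in length, so the sums and shares depend on that division too.

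**Figure D1:**
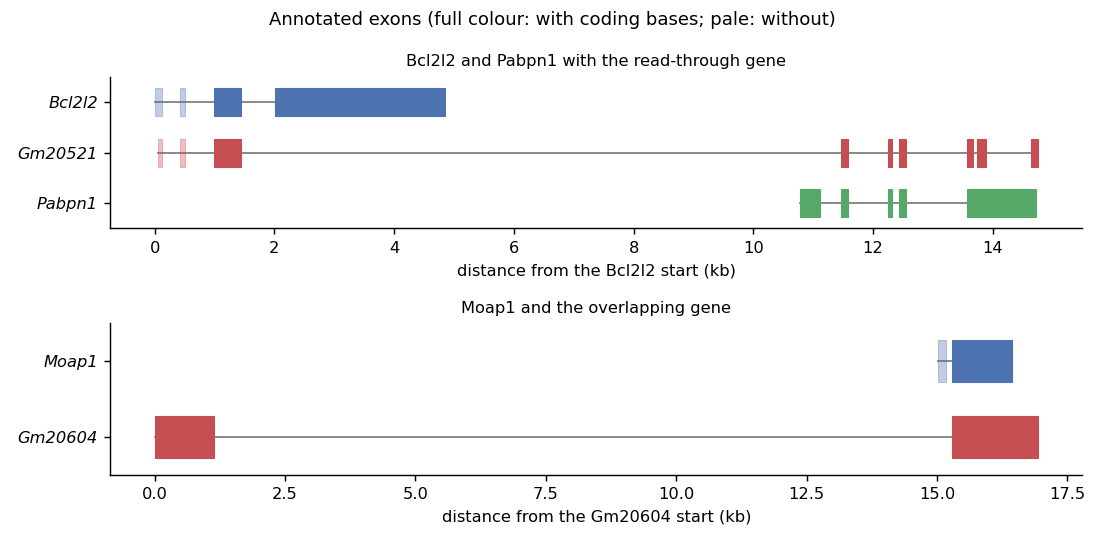
Annotated exons of *Bcl2l2*, *Gm20521* and *Pabpn1* (upper panel) and of *Moap1* and *Gm20604* (lower panel), drawn to scale in kilobases in the direction of transcription. Boxes are exons, in full colour where they hold coding bases. The first 3 exons of *Gm20521* lie on *Bcl2l2*, the other 6 on *Pabpn1*, and the *Moap1* coding exon lies inside the last exon of *Gm20604*.

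The libraries of replicate 1 stood apart from the others in both groups. The departure of a gene in control replicate 1 from the mean of control replicates 2 and 3 on the log2(FPKM + 1) scale went with the GC content of its transcript, with a Spearman rho of 0.748 across 11211 genes, and the same rho for C3G replicate 1 was 0.631. Genes are not independent replicates, so no p is given. Among the 10 genes, control replicate 1 held the highest of all 6 values for 5: *Bax*, *Bak1*, *Bbc3*, *Mcl1* and *Gm20521*. The GC content of their longest transcripts was 63.5% for *Bax*, 65.2% for *Bbc3*, 57.1% for *Bak1*, 55.1% for *Gm20521* and 48.7% for *Mcl1*, beside a median of 49.6% over all genes. Values without these libraries are therefore given below where they alter a result.

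**Figure D2:**
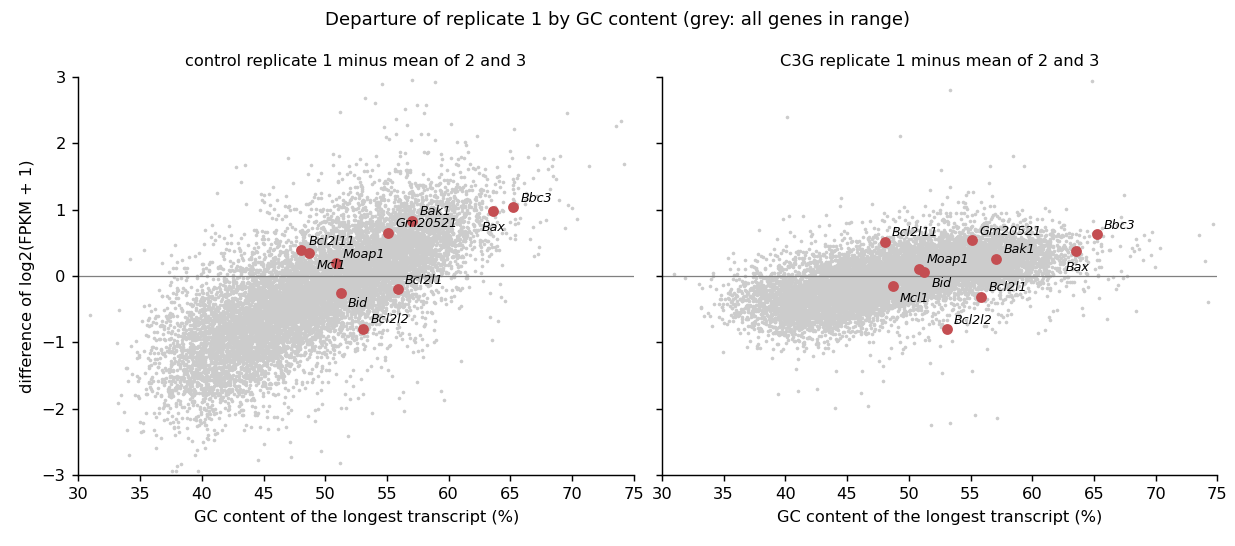
Departure of replicate 1 from the mean of replicates 2 and 3 in log2(FPKM + 1), for control (left) and C3G (right), against the GC content of the longest transcript in percent. Grey points are all genes within the axes and labelled red points are the 10 genes. *Bax* and *Bbc3*, of the highest GC content among the 10, departed by 0.98 and 1.03 in control replicate 1, while *Bcl2l2* departed by -0.80.

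*Mcl1*, which encodes a survival protein of short half-life, had the highest mean of the 10 genes over the 6 libraries, although *Bax* exceeded it in replicate 1 of both groups. It lies at chr3:95658788-95663176. Its level was 82.2, 69.1 and 60.1 FPKM in control replicates 1 to 3 and 53.7, 64.4 and 54.95 FPKM in C3G replicates 1 to 3. C3G replicate 2 lay between the control values, so the groups overlapped. The means were 70.5 ± 11.1 and 57.7 ± 5.84 FPKM (SD, n = 3 each), a difference of -0.28 on the log2(FPKM + 1) scale with a standard error (SE) of 0.18. The limma p was 0.166 and the exact permutation p was 0.2 (both two-sided). The C3G value was the lower of the pair for each replicate number, with differences of -0.60, -0.10 and -0.13, and the largest of these involved the control library that stood apart. The difference was -0.16 without control replicate 1 and -0.11 with replicates 2 and 3 alone.

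*Bcl2l1* (chr2:152780668-152831728), the gene of BCL-XL, was less abundant, with 5.69 to 13.5 times as much *Mcl1* per library. It measured 6.32, 5.13 and 10.6 FPKM in control cells and 5.04, 4.88 and 8.62 FPKM in C3G-treated cells. Replicate 3 was the highest library in both groups. The difference was -0.20 (SE 0.31, limma p = 0.536, exact permutation p = 0.5), and with the replicate number as a block its SE was 0.13 (limma p = 0.178). It was 0.06 without control replicate 3 and -0.43 without C3G replicate 3. *Bcl2l2*, the gene of BCL-W, measured 5.07, 9.85 and 9.25 FPKM in control cells and 3.53, 4.70 and 9.96 FPKM in C3G-treated cells. C3G replicate 3 held its highest value and C3G replicates 1 and 2 its lowest, so the difference of -0.42 (SE 0.38, limma p = 0.313, exact permutation p = 0.5) rested on a wide spread within C3G-treated cells. Leaving out each library in turn gave differences from -0.15 without C3G replicate 1 to -0.79 without C3G replicate 3, where the groups no longer overlapped. The difference was -0.26 without control replicate 2, -0.30 without control replicate 3 and -0.68 without control replicate 1. The sum of the 3 survival genes was 93.6, 84.1 and 79.9 FPKM in control cells and 62.3, 74.0 and 73.5 FPKM in C3G-treated cells. The groups did not overlap in this sum, which was formed after the values had been seen and is given with no test, and *Mcl1* made up 74.7% to 87.8% of it.

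*Bax* and *Bak1*, the pore-forming executioners, were the next most abundant genes and followed each other across libraries. *Bax* (chr7:45461697-45466898) measured 95.5, 48.0 and 47.9 FPKM in control cells and 59.4, 44.9 and 46.6 FPKM in C3G-treated cells. Replicate 1 was the highest library of each group and the other 4 libraries lay between 44.9 and 48.0 FPKM. The group means of 63.8 ± 27.5 and 50.3 ± 7.96 FPKM (SD, n = 3 each) differed by -0.27 (SE 0.30, limma p = 0.399, exact permutation p = 0.5), and without control replicate 1 the difference was 0.06. After the GC correction it was 0.05 (SE 0.12). *Bax* shares 11.7% of its 75-base stretches with *Gm45808*, an overlapping gene on the same strand.

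*Bak1* (chr17:27019810-27029009) measured 57.7, 30.8 and 33.1 FPKM in control cells and 42.1, 33.7 and 36.1 FPKM in C3G-treated cells. Control replicate 1 was again the highest, and the remaining control libraries lay below all C3G libraries. The difference of -0.07 (SE 0.26, limma p = 0.806, exact permutation p = 1) was 0.21 without control replicate 1 and 0.07 after the GC correction. The Pearson correlation of *Bax* and *Bak1* in log2(FPKM + 1) was 0.96 over the 6 libraries, which share the departure of replicate 1. The ratio of *Bax* to *Bak1* ran from 1.45 to 1.66 in control cells and from 1.29 to 1.41 in C3G-treated cells. This ratio was formed after the values had been seen, and it is given with no test. It is not corrected for GC content, and after the GC correction the difference was 0.05 for *Bax* and 0.07 for *Bak1*.

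The BH3-only genes differed widely in level, and *Bid* led them. *Bid* (chr6:120891930-120916853), whose protein is cleaved by caspase 8 downstream of death receptors, measured 15.8, 20.02 and 18.2 FPKM in control cells and 20.3, 20.4 and 18.7 FPKM in C3G-treated cells. C3G replicate 3 lay among the control values. The means were 18.01 ± 2.09 and 19.8 ± 0.932 FPKM (SD, n = 3 each), with a difference of 0.14 (SE 0.15, limma p = 0.406, exact permutation p = 0.2). It was 0.05 without control replicate 1, 0.21 without control replicate 2 and 0.03 with replicates 2 and 3 alone. *Bid* overlaps *Bcl2l13* and *Bak1* overlaps *Ggnbp1*, each on the opposite strand. Of the 8 genes taken by family, *Bid* alone had a higher mean in C3G-treated cells in the uncorrected values.

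*Bbc3* (chr7:16308393-16318205), the gene of PUMA and a target of p53, measured 13.8, 6.40 and 6.08 FPKM in control cells and 10.1, 6.26 and 6.03 FPKM in C3G-treated cells. The replicate 1 libraries were again the highest, and in replicates 2 and 3 the differences were -0.03 and -0.01 on the log2(FPKM + 1) scale. The difference over all libraries was -0.15 (SE 0.34, limma p = 0.668, exact permutation p = 0.6), and it was 0.22 (SE 0.14) after each library was corrected for GC content. *Bcl2l11* (chr2:128126038-128162547), the gene of BIM, was low at 2.30, 1.197 and 1.91 FPKM in control cells and 2.45, 1.48 and 1.35 FPKM in C3G-treated cells. The groups lay over each other, with a difference of -0.02 (SE 0.22, limma p = 0.919, exact permutation p = 1). Over the libraries left out in turn the *Bcl2l11* difference ran from -0.20 to 0.11. *Bid* supplied 49.6% to 72.5% of the summed FPKM of the 3 BH3-only genes, and this sum ran from 26.2 to 32.0 FPKM in control cells and from 26.1 to 32.8 FPKM in C3G-treated cells.

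**Figure D3:**
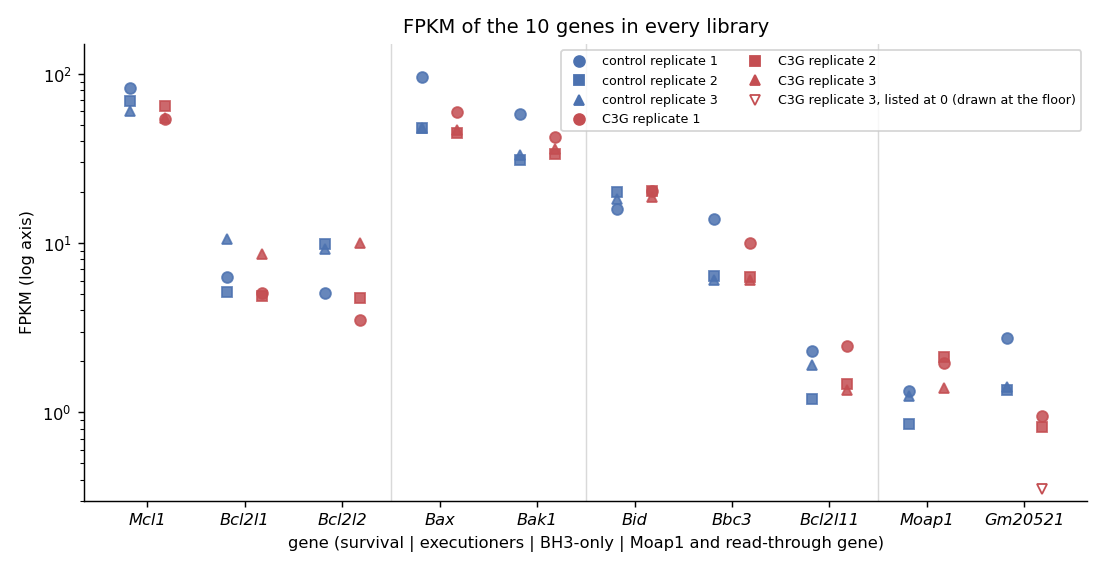
FPKM of the 10 genes in each of the 6 libraries on a log axis, with control in blue, C3G in red and the replicate number given by the marker. Vertical lines part survival genes, executioners, BH3-only genes, and *Moap1* with the read-through gene. The circles of replicate 1 stand above the other libraries for *Bax*, *Bak1* and *Bbc3*, and the open triangle marks *Gm20521* in C3G replicate 3, listed at 0 and drawn at the lower edge.

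By mean FPKM over the 6 libraries the genes fell in the order *Mcl1* (64.1), *Bax* (57.0), *Bak1* (38.9), *Bid* (18.9), *Bbc3* (8.11), *Bcl2l2* (7.06), *Bcl2l1* (6.76), *Bcl2l11* (1.78), *Moap1* (1.49) and *Gm20521* (1.21). The places of *Bcl2l2*, *Moap1* and *Gm20521* depend on how common fragments were divided, and the high replicate 1 values enter the means of *Bax*, *Bak1* and *Bbc3*. In 4 of the 9 neighbouring pairs every library had the same order: *Bax* above *Bak1*, *Bak1* above *Bid*, *Bid* above *Bbc3* and *Bcl2l1* above *Bcl2l11*. The two-sided exact permutation p of each was 0.03125, the smallest that 6 libraries allow, and 0.0703 after adjustment over the 9 pairs, so no neighbours passed an adjusted p of 0.05. The pairs and their directions were set by ranking the same libraries, and at least 6 pairs would have had to reach the smallest p for any to pass, so the test says little. In the other 5 pairs the order changed between libraries, with exact permutation p from 0.1875 for *Mcl1* and *Bax* to 0.96875 for *Bcl2l2* and *Bcl2l1*. The level of *Bcl2*, the founder of the family, which is not among the 10 and was named after its values had been seen, was 0.497 to 2.22 FPKM, near that of *Bcl2l11*.

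*Moap1*, the adaptor that binds BAX, was higher in every C3G library than in any control library. It measured 1.33, 0.857 and 1.25 FPKM in control cells and 1.95, 2.13 and 1.39 FPKM in C3G-treated cells. The means were 1.15 ± 0.254 and 1.82 ± 0.386 FPKM (SD, n = 3 each), a ratio of 1.59, and the difference on the log2(FPKM + 1) scale was 0.39 (SE 0.17). C3G replicate 3 lay closest to the control libraries, above the highest of them by 0.0557 FPKM. Leaving out each library in turn gave differences from 0.29 to 0.51, and with a pseudocount of 0.1 the difference was 0.63 (SE 0.28). *Moap1* was selected on this contrast, so these values carry no test.

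The overlapping gene *Gm20604* measured 3.79, 8.501 and 7.96 FPKM in control cells and 7.06, 7.62 and 8.35 FPKM in C3G-treated cells. Its lowest value was that of control replicate 1, and its groups overlapped. The sum of *Moap1* and *Gm20604* was 5.12, 9.36 and 9.20 FPKM in control cells and 9.01, 9.75 and 9.75 FPKM in C3G-treated cells, and it overlapped between groups as well. The share of *Moap1* in this sum was 26.1%, 9.16% and 13.6% in control cells and 21.7%, 21.8% and 14.3% in C3G-treated cells. The highest share was that of control replicate 1, and with this library the groups overlapped in the share as in the sum. Without it the shares did not overlap, with control replicates 2 and 3 at 9.16% and 13.6% and the lowest C3G share at 14.3%. The FPKM of 14.0% of all genes did not overlap either without this library. *Moap1* was chosen for its higher values with C3G, so this share is no separate result.

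*Gm20521* had the largest difference of the 10 genes over all 6 libraries, and the lowest mean level with both groups pooled. In control cells alone *Moap1* and *Bcl2l11* had lower means, and without control replicate 1 or C3G replicate 3 the difference of *Bcl2l2* was the larger. Its control libraries measured 2.75, 1.35 and 1.41 FPKM. C3G replicate 1 measured 0.956 FPKM, C3G replicate 2 measured 0.816 FPKM, and the third C3G library listed the gene at 0. Every C3G library lay below every control library. The fitted difference was -0.86 (SE 0.31) on the log2(FPKM + 1) scale with all libraries and -0.56 without C3G replicate 3. It was -0.64 without control replicate 1, the highest library. *Gm20521* too was selected on this contrast, and no test is given.

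The library where *Gm20521* was listed at 0 was the C3G library with the highest *Bcl2l2* value, 9.96 FPKM. The sum of *Bcl2l2* and *Gm20521* was 7.81, 11.2 and 10.7 FPKM in control cells and 4.49, 5.52 and 9.96 FPKM in C3G-treated cells. The groups overlapped in this sum, since C3G replicate 3 exceeded control replicate 1. The share of *Gm20521* in it was 35.1%, 12.0% and 13.2% in control cells and 21.3%, 14.8% and 0% in C3G-treated cells, so C3G replicates 1 and 2 lay within the control range. *Pabpn1* measured 11.5, 23.96 and 26.1 FPKM in control cells and 21.2, 22.5 and 24.1 FPKM in C3G-treated cells, with control replicate 1 the lowest library. The share of *Gm20521* in the sum with *Pabpn1* was 19.3%, 5.33% and 5.13% in control cells and 4.31%, 3.50% and 0% in C3G-treated cells, which did not overlap. *Gm20521* was chosen for its lower values with C3G and *Pabpn1* is far more abundant, so the latter share is no separate result. What part the division of common fragments has in these shares was not tested.

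**Figure D4:**
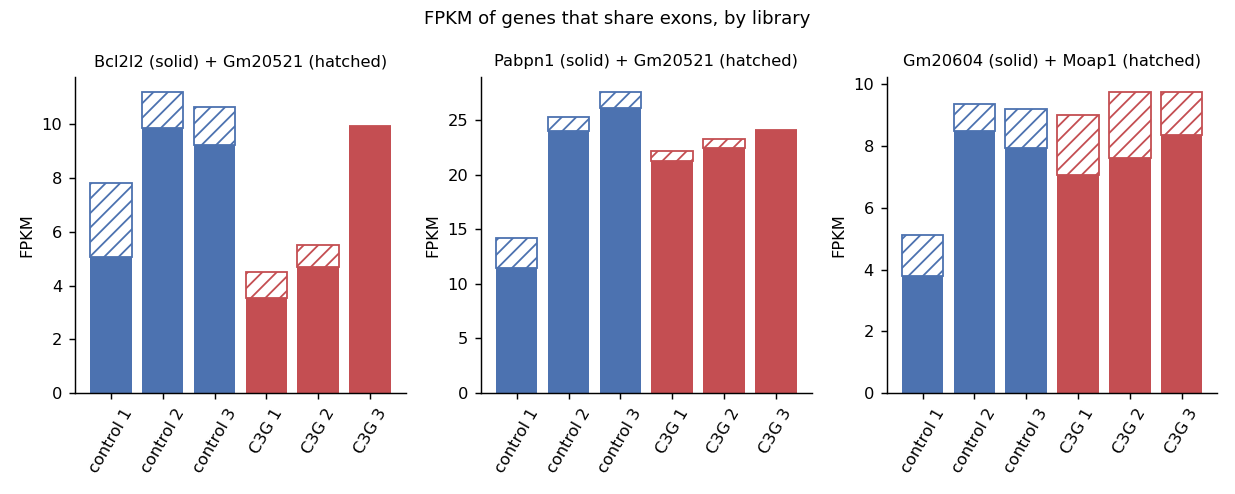
Stacked FPKM of overlapping genes in each library, with control in blue and C3G in red. The hatched part is *Gm20521* on *Bcl2l2* (left), *Gm20521* on *Pabpn1* (middle) and *Moap1* on *Gm20604* (right). The hatched *Gm20521* part is lower in every C3G library and missing in C3G replicate 3, while the full height of each stack overlaps between groups.

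Over the 10 genes, 2 had a higher mean in C3G-treated cells (*Moap1* and *Bid*) and 8 a lower one, with a median difference of -0.18 on the log2(FPKM + 1) scale beside 0.06 over all 11234 genes. After the GC correction 5 were higher and 5 lower, since *Bax*, *Bak1* and *Bbc3* turned. With an unadjusted limma p below 0.05 and a change of 1.2-fold or more as thresholds, 73 of 11234 genes (0.65%) were called, 28 of them (0.249%) lower in C3G-treated cells. With the replicate number as a block the count was 169, and no call among the 10 genes changed. Of the 10 genes, *Gm20521* enters the count of lower genes, which describes the contrast that chose it. Of the 8 genes taken by family, 0 were past them, each had a difference within 2 SE of 0, and the smallest limma p was 0.166. No gene of the 11234 (0%) had a Benjamini-Hochberg adjusted p under 0.05 in limma, with 74 genes at an unadjusted p under 0.05 and a smallest adjusted p of 0.497. The adjusted p of the 8 genes was 0.992 or 0.994. Without the block, the narrowest interval of 2 SE around a difference of these 8 was that of *Bid*, from -0.17 to 0.44 on the log2(FPKM + 1) scale, and the widest that of *Bcl2l2*, from -1.18 to 0.35. With the block the SE fell from 0.31 to 0.13 for *Bcl2l1*, then the narrowest of the 8, and from 0.34 to 0.15 for *Bbc3*. The blocked limma p of the 8 was smallest for *Bcl2l2*, at 0.124 beside 0.313 without the block. Of the 8, *Mcl1*, *Bcl2l1*, *Bax* and *Bbc3* were lower and *Bid* was higher in C3G-treated cells at all 3 replicate numbers. For *Bbc3* the differences in replicates 2 and 3 were only -0.03 and -0.01, and *Bax* and *Bbc3* turned after the GC correction. The share of all genes that keep a direction in this way was not counted, so nothing is read from this pattern.

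The groups did not overlap for 2 of the 10 genes, *Moap1* and *Gm20521*, and for 0 of the other 8, beside 4.02% (452) of all genes. Leaving out each library in turn raised the share over all genes to between 8.82% and 14.0%. Groups already apart, as for *Moap1* and *Gm20521*, cannot come to overlap in this way. The other genes came apart singly: *Bak1* without control replicate 1, *Bid* without control replicate 2, *Mcl1* without control replicate 3 or C3G replicate 2, and *Bax* without C3G replicate 1. Without C3G replicate 3, *Bcl2l1*, *Bcl2l2* and *Bid* were apart. With replicates 2 and 3 alone in both groups, *Bax* was lower and *Bak1* higher in C3G-treated cells with no overlap, as were 24.2% of all genes in either direction.

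**Figure D5:**
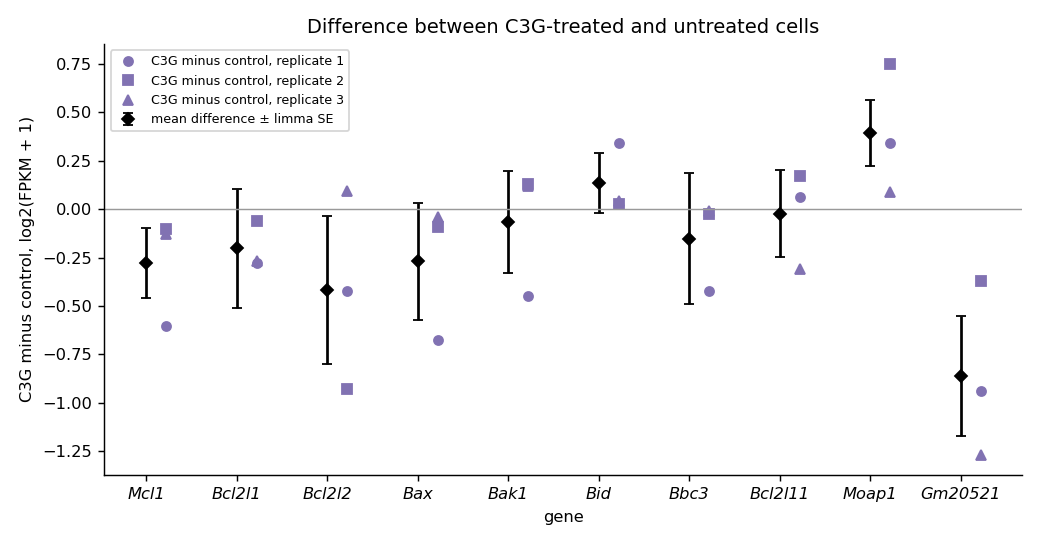
Difference between C3G-treated and untreated cells for the 10 genes on the log2(FPKM + 1) scale. Black diamonds are mean differences with the limma SE as bars, and purple markers are the differences within each replicate number. At all 3 replicate numbers 2 genes lie above 0 (*Moap1* and *Bid*) and 5 below 0 (*Gm20521*, *Mcl1*, *Bcl2l1*, *Bax* and *Bbc3*). *Moap1* and *Gm20521* were chosen by this contrast, and the share of all genes with such a pattern was not counted. The mean differences of the 8 genes other than *Moap1* and *Gm20521* are within 2 SE of 0.

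The wider machinery around these genes was followed in 6 lists of 98 genes, 76 of which had values and 22 of which are not analysed here. Of the 76 genes, 0 were called higher and 1 was called lower in C3G-treated cells (1.32%, beside 0.65% of all genes in either direction). The called gene was *Dynll2*, a dynein light chain that binds the BH3-only protein BMF. *Dynll2* measured 68.1, 41.5 and 54.5 FPKM in control cells and 33.8, 30.4 and 30.4 FPKM in C3G-treated cells. Every C3G library lay below every control library, with a difference of -0.75 (SE 0.21, limma p = 0.00931, Benjamini-Hochberg adjusted p = 0.992, exact permutation p = 0.1, the smallest possible). The medians of the lists were 0.08 for the other BCL2 family genes (12 genes), 0.09 for mitochondrial release and the apoptosome (21 genes), -0.06 for the death receptor pathway (13 genes), 0.06 for p53 and other regulators of BH3-only genes (15 genes) and 0.07 for turnover of MOAP1, MCL1 and BIM (15 genes). The median of all genes was 0.06, and the death receptor list alone had a median of the opposite sign. For the PNMA family, to which *Moap1* belongs by sequence, the 9 listed genes are not analysed here.

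The 2 most abundant genes of each list with values follow. *Vdac1*, a channel of the outer mitochondrial membrane, measured 81.7 ± 9.80 FPKM in control cells and 92.8 ± 8.46 FPKM in C3G-treated cells (SD, n = 3 each). *Birc5*, the gene of survivin, measured 40.2 ± 11.2 and 41.1 ± 2.29 FPKM. *Bag1*, a co-chaperone that binds BCL2, measured 124 ± 21.7 and 111 ± 7.82 FPKM, and *Bcap31*, a protein of the endoplasmic reticulum that caspases cleave, 82.1 ± 10.5 and 89.9 ± 6.63 FPKM. The tumour necrosis factor receptor *Tnfrsf1a* measured 58.5 ± 6.33 and 66.9 ± 7.04 FPKM, and the related receptor *Tnfrsf12a* ran from 39.2 to 114 FPKM in control cells and from 60.3 to 130 FPKM in C3G-treated cells. Among p53 targets, *Cdkn1a*, a cell cycle inhibitor, measured 94.7 ± 19.6 and 89.7 ± 11.7 FPKM. *Phlda3*, an inhibitor of AKT, measured 389, 153 and 161 FPKM in control cells and 204, 152 and 143 FPKM in C3G-treated cells, so it shared the high replicate 1 values of *Bax* and *Bbc3*. Of the genes that act on MOAP1 and BCL2 family turnover, *Ywhaz*, a 14-3-3 protein, measured 87.1 ± 25.4 and 95.9 ± 3.68 FPKM, and the co-chaperone *Bag3* 54.9 ± 8.70 and 57.6 ± 8.83 FPKM. None of these 10 genes was past the thresholds, with limma p from 0.291 for *Tnfrsf1a* to 0.778 for *Birc5*.

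Some further partners of the 10 genes were chosen after their values had been seen. *Rassf1*, whose RASSF1A form joins MOAP1 to death receptors, measured 4.39, 6.40 and 3.91 FPKM in control cells and 3.75, 4.21 and 3.84 FPKM in C3G-treated cells, with a difference of -0.24 (SE 0.20) that was -0.06 without control replicate 2, its highest library. *Casp8*, the protease that cleaves BID, measured 10.1 ± 3.85 and 9.49 ± 2.40 FPKM (SD, n = 3 each). Replicate 1 held the lowest *Casp8* value of each group, 5.69 FPKM in control and 6.77 FPKM in C3G-treated cells, opposite to *Bax*. *Xiap*, an inhibitor of caspases, measured 1.81, 1.48 and 1.44 FPKM in control cells and 4.16, 1.40 and 6.97 FPKM in C3G-treated cells. C3G replicate 2 lay below all controls while the other C3G libraries lay above them, with a difference of 0.85 (SE 0.41) that ran from 0.45 without C3G replicate 3 to 1.32 without C3G replicate 2. *Bad*, a BH3-only gene, measured 18.1 ± 8.01 and 16.1 ± 1.38 FPKM, and the executioner-like *Bok* 21.4 ± 2.74 and 17.9 ± 6.67 FPKM.

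The genes most like *Moap1* and *Gm20521* over the 6 libraries are given as a description, by the Pearson correlation of log2(FPKM + 1) among 10463 genes with a mean FPKM of at least 1. For *Moap1* these were *Bzw2* (r = 0.985), *Ptrhd1* (0.966), *Rab40c* (0.961), *Hjurp* (0.948) and *Wdr61* (0.940). *Bzw2* measured 7.70, 7.07 and 7.64 FPKM in control cells and 8.29, 8.28 and 7.61 FPKM in C3G-treated cells. For *Gm20521* they were *Coq5* (r = 0.995), *Hpcal1* (0.964), *Setd1a* (0.964), *Prpf31* (0.960) and *Dab2ip* (0.956). *Coq5* measured 10.5, 9.67 and 9.72 FPKM in control cells and 9.23, 9.31 and 8.36 FPKM in C3G-treated cells, a far smaller range than that of *Gm20521*. Among the 10 genes, *Bbc3* followed *Bax* (r = 0.96) and *Bak1* (r = 0.95), the genes whose replicate 1 values were high. The most negative value was that of *Moap1* with *Bcl2l2* (r = -0.78), with *Bid* and *Bax* (r = -0.77) and *Bid* and *Bak1* (r = -0.73) close to it.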

How the data were processed

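RNA of 3 control and 3 C3G samples was extracted with TRIzol, and stranded libraries were sequenced over 150 cycles. The authors used Ballgown to calculate gene-level FPKM, and the deposited FPKM were the input here. Cutadapt, HISAT2 2.1.0, StringTie and STAR 2.5.2b are named in the submitters' processing notes without their roles, as is hg19, a human build, although the identifiers are mouse Ensembl genes. Depth is unknown, so no counting error can be given, and the handling of strand and of common fragments is not given in the sources used here. Whether samples of a group came from separate cultures is not stated, and p-values then measure only the spread between these samples, which may be technical.

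Of 11234 identifiers, 11211 matched a symbol through GENCODE M21, the source of positions, exons and sequences. Every gene had a mean of at least 0.5 FPKM in at least 1 group, so a gene low in both groups has no value here. log2(FPKM + 1) was fitted in limma 3.58.1 (R 4.3.3, lmFit, eBayes with trend) with group as the only term, and fold changes are on this scale, which understates those of low genes. Single genes were also compared by two-sided exact permutation (scipy 1.17.1), whose smallest p is 0.1. The limma fit was tested on simulated data with independent noise, which held no pairing of samples, GC effect or common fragments. The genes named are all 10, each listed pathway gene past both thresholds and the 2 of highest mean FPKM per list, and the 5 genes most like *Moap1* and *Gm20521*. *Bcl2*, *Rassf1*, *Casp8*, *Xiap*, *Bad* and *Bok* were named outside this rule, after their values had been seen. The members and lists were chosen with earlier results of these data known. Replicate numbers come from the sample titles. Departures from group means of same-numbered samples correlated at 0.653, 0.580 and 0.440 across genes, beside -0.640 to 0.307 for samples of different numbers. The numbers were therefore taken to pair the samples. The main fit and the exact permutation of single genes leave this pairing out, and the replicate block uses it.

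Alternatives were another pseudocount, a filter at a mean of 1 FPKM, no trend, quantile normalization, median centring, a spline correction for GC content, the replicate block, each library left out, and replicates 2 and 3 alone.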

Additional observations from a re-analysis of the deposited data

How the results depend on the processing

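Of 150 alternative differences of the 10 genes, 127 kept their direction and side of the thresholds. The 16 that turned were those of 5 genes. With the GC correction, blocked or not, the differences were 0.048 for *Bax*, 0.065 for *Bak1* and 0.22 for *Bbc3*. Without control replicate 1 they were 0.057, 0.21 and 0.19, and 0.11 for *Bcl2l11*. The *Bak1* difference was 0.00044 without C3G replicate 2 and 0.12 with replicates 2 and 3 alone. The *Bcl2l1* difference was 0.062 without control replicate 3, and that of *Bcl2l11* was 0.013 without control replicate 3 and 0.043 and 0.081 without C3G replicate 2 or 3. Over the libraries left out in turn the range was -0.43 to 0.057 for *Bax*, -0.23 to 0.21 for *Bak1*, -0.43 to 0.062 for *Bcl2l1*, -0.20 to 0.11 for *Bcl2l11* and -0.36 to 0.19 for *Bbc3*. The cause was not tested.

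Genes called numbered 112 with the GC correction, 169 with the replicate block, 205 with both, 191 with replicates 2 and 3 alone and 40 to 144 with a library left out, beside 73, and 0 had an adjusted p under 0.05 in any setting. The block changed no call among the 10 genes. Of the 10 genes, 0 were called at a pseudocount of 0.1, where the *Gm20521* difference was -2.00, 2 after the GC correction, blocked or not (*Moap1* and *Gm20521*), and 1 with a library left out, *Moap1* without control replicate 1 or C3G replicate 3 and *Gm20521* in the other 4 settings. Both genes were chosen by this contrast, and nothing is read from these counts. Listed pathway genes called numbered 1 to 2 with a library left out, the second being *Xiap* without C3G replicate 2. Of the 8 genes taken by family, 1 to 3 did not overlap with a library left out and 2 with replicates 2 and 3 alone. The difference in the share of *Gm20521* in its sum with *Bcl2l2*, -8.12 percentage points, was -12.8 to -0.62 with a library left out. With 5 libraries the order of levels cannot reach an exact p under 0.0625, so that test was not repeated. FPKM carry no read counts, so what depth limits cannot be stated, least of all for *Moap1*, *Gm20521* and *Bcl2l11* near 1 FPKM.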
